A study of Canis lupus familiaris with 18 samples.

Results

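The transcripts of 5 secreted bone and cartilage morphogens, BMP2, BMP4, BMP7, GDF5 and GDF7, were followed in mesenchymal stem cells grown from dog fat (cAD-MSCs) at passage 6 (P6) and at passage 3 (P3). They were taken by gene symbol from the 84 genes of an RT-qPCR array for dog mesenchymal stem cells, by a rule that uses no measured value. The cells came from abdominal fat of 9 healthy female dogs of several breeds, from under a year to several years of age, removed at elective spaying. They were freed with collagenase, grown on plastic in medium with fetal bovine serum and harvested near confluence, once at P6 and once at P3, which gave 18 RNA samples, 9 per passage. Both passages come from the same dogs, a donor is named by its number (6/21 to 7/22), and each gene had 1 well per sample. The comparison asks what culture from P3 to P6, described by the study as in vitro aging, does to these transcripts.

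Bone morphogenetic proteins (BMPs) and growth differentiation factors (GDFs) belong to the TGF-β superfamily. As paired chains they bind serine/threonine kinase receptors on the cell surface, which phosphorylate SMAD proteins that join SMAD4 and enter the nucleus, while SMURF ubiquitin ligases limit the signal. BMP2 and BMP4 are close relatives that drive mesenchymal cells towards bone and cartilage, BMP7 also acts in bone, kidney and brown fat, GDF5 is known for joint formation and GDF7 for tendon and spinal cord development. In MSC cultures these ligands are known as signals for bone- and cartilage-forming differentiation.

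Each well was deposited as a threshold cycle (CT), counted up to the crossing of a fluorescence threshold, and a lower CT means more transcript. Wells at or over 35 cycles, or that never crossed, were set to 35. From every CT the geometric mean over the 5 reference genes of the same sample was taken away. With its sign turned this gives −ΔCT, a log2 level in which a step of 1 means 2-fold. The reference CT was 14.65 ± 0.321 at P6 and 14.85 ± 0.508 at P3 (SD, n = 9 donors). Between 72 and 77 of the 84 genes were detected per sample at P6 and between 75 and 81 at P3. In the P6 sample of donor 7/22, 4 genes that were detected in the other 17 samples did not cross the threshold, BMP2 and BMP4 among them, and 4 others were missing in this way in the P6 sample of donor 9/21. At P3 there were 3 such genes in donor 7/22, 2 in donor 2/22 and 1 in donor 9/21. Of the 8 MSC surface markers, 6 were detected in every sample. THY1 was missing in the P3 sample and ALCAM in the P6 sample of donor 9/21.

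BMP2, BMP4 and BMP7 were moderately expressed, and GDF5 and GDF7 lay at the edge of detection. In the order of mean −ΔCT among the 84 genes, BMP4 ranked 36 at P6 and 32 at P3, BMP2 ranked 43 and 36, and BMP7 ranked 42 and 50. GDF7 ranked 78 at P6 and 80 at P3, and GDF5 ranked 81 at both. The levels of different genes compare only as far as their assays amplify alike, which the array data do not show. At P3 the order of the mean levels was BMP4, BMP2, BMP7, GDF7 and GDF5. BMP4 exceeded BMP7 by 2.97 ± 1.55 on the log2 scale in 9 of 9 donors (SD; exact sign-flip permutation test within donors, two-sided, p = 0.00391, the smallest that 9 donors can give, adjusted p = 0.00868 over 20 pairs of genes and passages). BMP2 exceeded BMP7 by 2.27 ± 2.22 in 7 of 9 donors (exact sign-flip permutation test, adjusted p = 0.0335). BMP4 and BMP2, neighbours in this order, did not differ beyond their spread (BMP2 minus BMP4 −0.70 ± 1.89, exact permutation adjusted p = 0.391). GDF7 and GDF5 did not either (GDF5 minus GDF7 −0.42 ± 4.01, exact permutation adjusted p = 0.806).

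At P6, with all 9 donors, no pair of the 3 BMP genes passed these tests, and the mean of the BMP7 level lay just above that of BMP2. BMP2 minus BMP7 was −0.05 ± 6.88 (exact permutation adjusted p = 0.980), BMP4 minus BMP7 0.89 ± 6.51 (exact permutation adjusted p = 0.806) and BMP2 minus BMP4 −0.94 ± 2.16 (exact permutation adjusted p = 0.292). These values rest on donor 7/22, where BMP2 and BMP4 were undetected and BMP7 was not. Without it BMP4 minus BMP7 at P6 was 2.92 ± 2.47, with BMP4 higher in 8 of 8 donors (exact permutation adjusted p = 0.0112), and BMP2 minus BMP7 was 1.86 ± 4.06 (exact permutation adjusted p = 0.269). The change of the gap between BMP4 and BMP7 from P3 to P6 did not pass its test (P6 minus P3 −2.08 ± 5.65 in 9 donors, exact sign-flip permutation adjusted p = 0.879 over 10 pairs, and −0.28 ± 1.69 without donor 7/22, exact permutation adjusted p = 0.781). Each of the 3 BMP genes exceeded GDF5 and GDF7 in level by 10.43 to 12.18 on the log2 scale at P6 and by 9.13 to 12.52 at P3 (exact permutation adjusted p = 0.0120 or below in all 12 of these pairs). The wells at the limit, 11 of 18 GDF wells at P6 and 8 of 18 at P3 and the BMP2 and BMP4 wells of donor 7/22 at P6, make these gaps approximate. In all, 14 of the 20 pairs differed. The adjusted p of the pairs of BMP genes depends on the 12 pairs with a GDF gene, which are adjusted in the same set. With undetected wells left out, 0 of 19 pairs tested passed, though all 3 BMP genes were detected in every P3 sample.

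**Figure D1:**
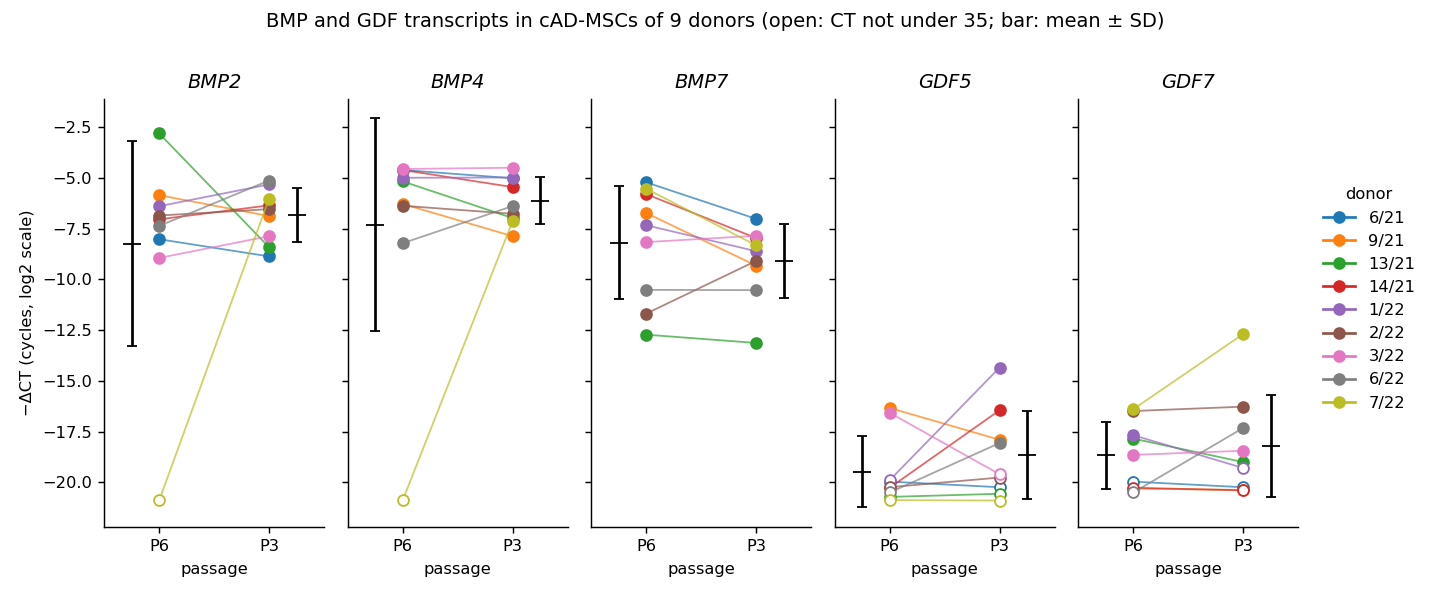
Level of each transcript as −ΔCT in cycles (log2 scale, vertical axis) in the 9 donors at P6 (left in each panel) and P3 (right); lines join the 2 samples of a donor, open circles are wells without a CT under 35, and black bars are the mean ± SD. BMP2 and BMP4 of donor 7/22 lie at −20.87 at P6, far below the other donors, while the GDF5 and GDF7 samples crowd the bottom of the scale.

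BMP2 (well A09, RefSeq XM_534351) had −ΔCT values with a lowest of −20.87, a median of −7.04 and a highest of −2.81 at P6, against −8.87, −6.54 and −5.13 at P3. The lowest P6 value is a bound, from the well of donor 7/22 that never crossed, and the highest is that of donor 13/21. That donor had a CT of 17.10 at P6 and 22.86 at P3, which is 14.3% and 0.293% of the reference level. Apart from donors 7/22 and 13/21, the changes from P3 to P6 lay between −2.24 and 1.03, and the 2 passages overlap. The mean was −8.24 ± 5.04 at P6 and −6.82 ± 1.32 at P3 (SD, n = 9 donors). The log2 difference was −1.42 (standard error 1.66, 95% interval −4.90 to 2.07, adjusted p = 0.873 from limma), and BMP2 was lower at P6 in 6 of 9 donors. With undetected wells left out it was 0.16 (standard error 0.743, adjusted p = 0.970 from limma).

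BMP4 (well A10, RefSeq NM_001287170) had the highest median level of the 5 genes at both passages. Its −ΔCT had a lowest of −20.87, a median of −5.17 and a highest of −4.56 at P6, against −7.87, −6.39 and −4.50 at P3. The lowest P6 value is again the bound of donor 7/22. The next lowest, −8.21 in donor 6/22, is 12.66 higher. The mean was −7.30 ± 5.23 at P6 and −6.12 ± 1.17 at P3 (SD, n = 9 donors), and the log2 difference was −1.18 (standard error 1.71, 95% interval −4.77 to 2.41, adjusted p = 0.873 from limma). The difference of the medians had the other sign, 1.22. In the 8 donors with both wells detected BMP4 was higher at P6 in 5 and lower in 3, with changes from −1.83 to 1.81, and the difference without undetected wells was 0.52 (standard error 0.589, 95% interval −0.72 to 1.76, adjusted p = 0.962 from limma).

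A well labelled next to these 2 also stood apart in the P6 sample of donor 7/22. BGLAP, which encodes the bone matrix protein osteocalcin and sits in the preceding well A08, crossed at 4.75 cycles, against a median of 22.3 in the other P6 samples. KAT2B (well D09) and KDR (well D10), the other 2 genes missing there and detected elsewhere, carry neighbouring labels under another letter. Their labels hold the same 2 numbers as those of BMP2 (A09) and BMP4 (A10). The study ran the array on a Rotor-Gene Q, and the labels alone do not show which wells lay side by side. BMP7 in the following well A11 crossed at 19.66 cycles, against a median of 22.6, and its −ΔCT of −5.53 lay within the range of the other P6 samples. Whether the BMP2 and BMP4 wells failed or the cells lacked these transcripts was not tested.

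BMP7 (well A11, RefSeq NM_001197052) was the only one of the 5 genes detected in all 18 samples and the only one with a higher mean at P6. Its −ΔCT had a lowest of −12.72, a median of −7.33 and a highest of −5.22 at P6, against −13.13, −8.61 and −7.02 at P3. The P6 samples of donors 6/21, 7/22, 14/21 and 9/21 lay above every P3 sample, and donor 13/21 was the lowest at both passages. BMP7 was higher at P6 in 7 of 9 donors, by 0.01 in donor 6/22 and up to 2.79 in donor 7/22, and lower in donors 2/22 (by 2.59) and 3/22. At least 7 of 9 donors were higher at P6 for 10.7% of the 84 genes. The mean was −8.19 ± 2.80 at P6 and −9.09 ± 1.82 at P3 (SD, n = 9 donors). The log2 difference of 0.90 (standard error 1.07, 95% interval −1.35 to 3.16, adjusted p = 0.873 from limma) was smaller than the SD of the donor changes, 1.72. With the donor as a block the standard error was 0.561 (95% interval −0.35 to 2.16) and the adjusted p from limma 0.741.

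GDF5 (well C04, RefSeq XM_542974) was detected in 2 of 9 samples at P6, those of donors 9/21 and 3/22, and in 4 of 9 at P3, those of donors 9/21, 14/21, 1/22 and 6/22. Among detected wells its CT was 31.03 and 31.15 at P6, against 30.05 to 32.82 at P3. A further P6 well, of donor 7/22, crossed at 36.78 cycles, past the limit, and 11 of the 18 wells never crossed. In donor 9/21, where both wells were detected, GDF5 was higher at P6 by 1.57 on the log2 scale. In 4 donors it was detected at 1 passage alone, at P6 in donor 3/22 and at P3 in donors 14/21, 1/22 and 6/22, and in 4 donors at neither.

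GDF7 (well C05, RefSeq XM_540103) was detected in 5 of 9 samples at P6 and in 6 of 9 at P3. Its −ΔCT among detected wells was between −18.64 and −16.39 at P6 and between −20.37 and −12.69 at P3. Donor 7/22 had the most GDF7 at both passages, with a CT of 30.52 at P6 and 26.80 at P3, lower at P6 by 3.70 on the log2 scale. In the other 3 donors with both wells detected the changes were 1.16, −0.21 and −0.20. At P6 3 further wells crossed past the limit, between 35.15 and 36.33 cycles, and at P3 none did. Detection did not differ between the passages for any of the 5 genes (Fisher's exact test, two-sided, p = 0.620 for GDF5 and 1 for each of the others before adjustment), and 2.38% of the 84 genes had an unadjusted p under 0.05 by that test.

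**Figure D2:**
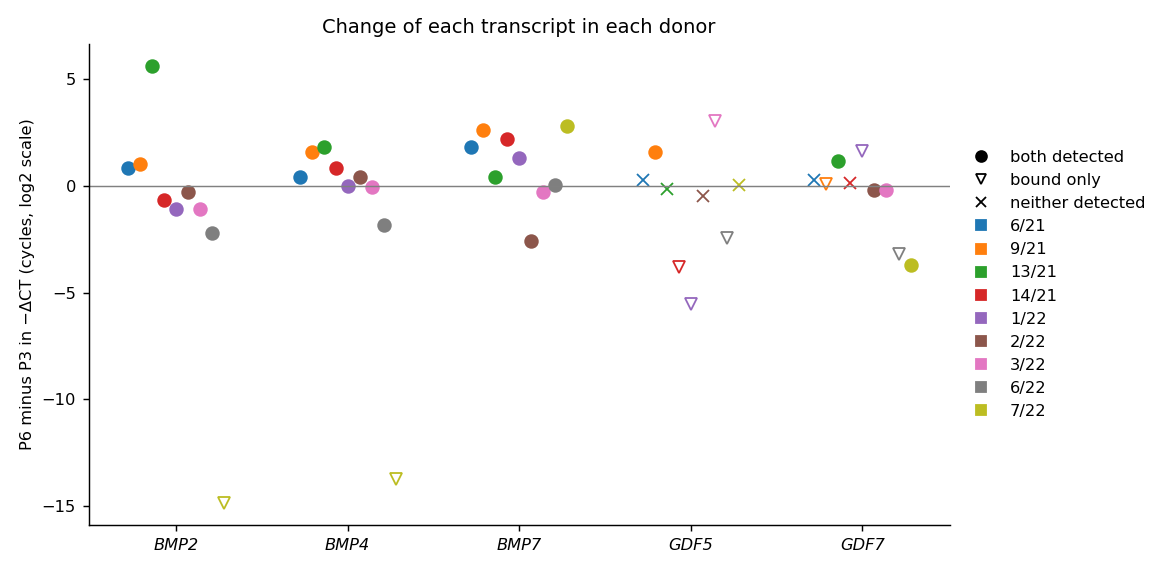
Change of each transcript from P3 to P6 in each donor, as P6 minus P3 in −ΔCT (cycles, log2 scale, vertical axis), with filled circles where both wells were detected, open triangles where 1 well was (a bound) and crosses where neither was. BMP7 lies above 0 in 7 of 9 donors, and the 2 bounds of donor 7/22 for BMP2 and BMP4 lie at −14.85 and −13.74.

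None of the 5 genes differed between P6 and P3 after adjustment over the 84 genes, where 1.19% of all genes did (PTPRC alone, the leukocyte antigen CD45, lower at P6). None had an unadjusted p under 0.05 either, against 5.95% of all genes. The lowest unadjusted p among them was 0.367, for GDF5, from limma. The log2 differences of GDF5 and GDF7 were −0.84 (standard error 0.904, 95% interval −2.74 to 1.06) and −0.45 (standard error 0.971, 95% interval −2.49 to 1.59), with adjusted p of 0.873 and 0.968 from limma. The wells at the limit make both values approximate in size and sign. GDF7 was 0.41 with a limit of 40 cycles, and GDF5 was 0.23 with undetected wells left out. The sign turned in 2 of 26 alternatives for GDF5 and in 3 of 26 for GDF7. The P6 means of 2 of the 5 genes, BMP2 and BMP4, lay 2-fold or more below their P3 means, which held for 25% of the 84 genes, and none lay as far above, which held for 11.9%. Their median log2 difference was −0.84, beside −0.05 over all 84 genes. Taken from the medians of the passages in place of the means, it was 0.36, beside −0.02 over all 84 genes, so that its sign is not settled. The 95% intervals of all 5 genes reach beyond a 2-fold change in at least 1 direction.

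The lower means of BMP2 and BMP4 rested on donor 7/22. Without that donor the log2 differences were 0.26 for BMP2 and 0.39 for BMP4, both adjusted p = 0.991 from limma. For BMP2 this value holds the rise of 5.61 in donor 13/21, and 5 of the 8 donors were lower at P6. With all 9 donors, BMP2 stayed lower by robust regression (−0.41) and by the medians (−0.50), while BMP4 was higher by both (0.29 and 1.22). In the 4 donors numbered /21 alone, which include 13/21, the differences of BMP2 and BMP4 were 1.70 and 1.16 (both adjusted p = 0.899 from limma). In the 5 numbered /22, which include 7/22, they were −3.91 and −3.05 (both adjusted p = 0.870 from limma). BMP7 kept a higher mean at P6 in both sets, by 1.74 and 0.23 (adjusted p = 0.899 and 0.882 from limma).

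**Figure D3:**
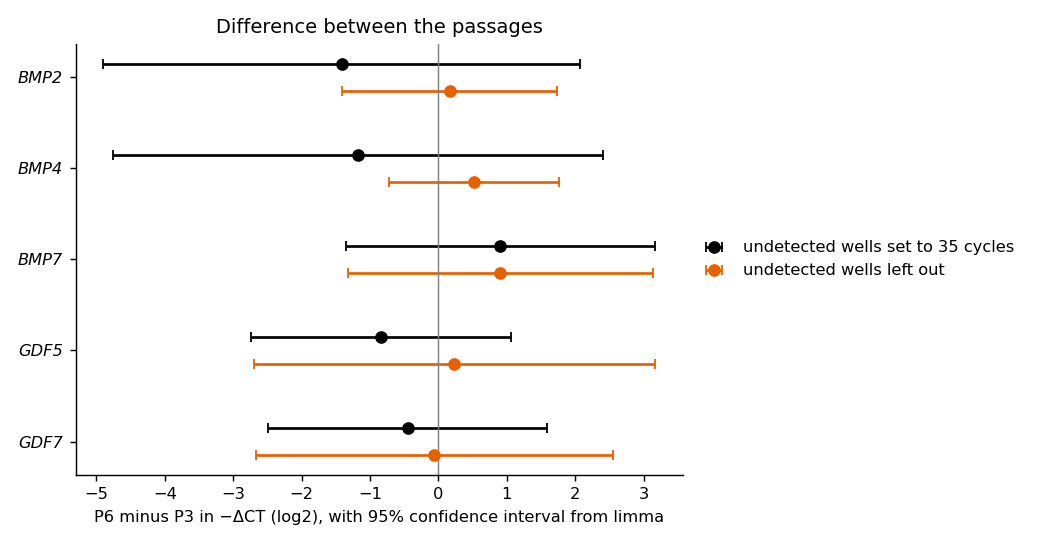
Difference between the passages for each gene, P6 minus P3 in −ΔCT (log2, horizontal axis), with 95% confidence intervals from limma, with undetected wells set to 35 cycles (black) or left out (orange). All intervals include 0, and the means of BMP2, BMP4 and GDF5 change sign when undetected wells are left out.

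Taking 2^−ΔCT as the amount of each transcript, the detected BMP and GDF transcripts of a sample were nearly all BMP2, BMP4 and BMP7. BMP4 made up a median of 57.2% at P6 and 53.4% at P3, BMP2 24.0% and 42.2%, and BMP7 12.5% and 8.43%. The GDF7 share was at most 0.586%, in the P3 sample of donor 7/22, and the GDF5 share at most 0.0813%. BMP4 led in 5 of 9 samples at P6 and in 5 of 9 at P3, and BMP2 in 3 and 4. BMP7 led in 1 sample, the P6 sample of donor 7/22, with 99.9%. The leading gene was the same at both passages in 6 of 9 donors. BMP4 led at both passages in donors 6/21, 14/21, 1/22 and 3/22, and BMP2 in donors 9/21 and 6/22. In donor 13/21 BMP2 led at P6, with 83.6% against 26.7% at P3. The level of BMP7 relative to BMP4, from which the reference genes cancel, was higher at P6 in 6 of 9 donors, with a median change of 1.29 on the log2 scale. In donor 7/22 it rests on the bound of BMP4 at P6. Without that donor it was higher in 5 and lower in 3 of 8, and BMP4 minus BMP7 changed by a median of −1.145. The level of BMP2 relative to BMP4 can be read in the 8 donors other than 7/22, and was higher in 2 and lower in 6 of them.

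**Figure D4:**
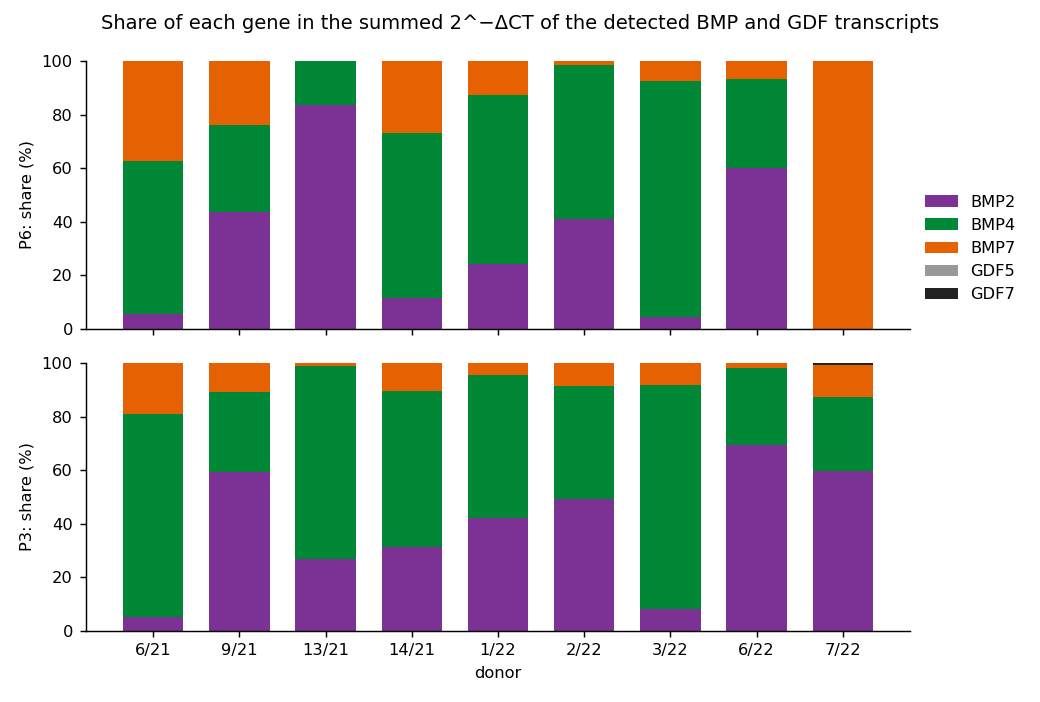
Share of each gene in the summed 2^−ΔCT of the detected BMP and GDF transcripts (percent, vertical axis) for each donor (horizontal axis), with P6 above and P3 below. BMP4 or BMP2 took the largest part in all samples but the P6 sample of donor 7/22, where BMP7 had 99.9%.

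Of 30 relations among the 5 genes (10 pairs, each at P6, at P3 and for the change), that between the donor changes of BMP2 and BMP4 was the only one with an adjusted p under 0.05, and this call rested on donor 7/22, in which the limit gives both genes the same P6 value. Pearson's r between the changes of BMP2 and BMP4 over the 9 donors was 0.96 (p = 0.000152 and adjusted p = 0.00455 by exact permutation). Spearman's rho was 0.95 (p = 0.000353 and adjusted p = 0.0106 by exact permutation), with the same sign in 7 of 9 donors. Without donors 13/21 and 7/22, the 2 farthest from the median change of BMP2, r was 0.84. Without donor 7/22 alone r was 0.78 and rho 0.93 (exact permutation test, p = 0.0390 and 0.00223), and the adjusted p of r was 0.584, so that the relation did not pass. Without any other single donor r was 0.96 to 0.99 and its adjusted p stayed under 0.05. Both changes contain the same reference CT and the same samples, and the 2 wells carry neighbouring labels. From CT alone, with no reference genes, r was 0.96 with all donors (exact permutation test, p = 0.000581) and 0.74 without donor 7/22 (exact permutation test, p = 0.0856).

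Over all 3486 pairs of the 84 genes, an r at least as high as that of BMP2 and BMP4 was found in 0.287% with all donors and in 3.27% without donor 7/22. The median r was 0.01 over all pairs and 0.08 over the 77 pairs of wells with neighbouring labels under the same letter. The levels of BMP2 and BMP4 at P3 were not related (r −0.15, rho −0.03, exact permutation tests, p = 0.686 and 0.948, adjusted p = 0.894 and 1, r −0.13 without the 2 farthest donors). At P6 r was 0.91 and rho −0.03 (exact permutation tests, p = 0.0691 and 0.948, adjusted p = 0.518 and 1), and r was −0.32 without donors 13/21 and 7/22, so that it rests on those samples. The changes of GDF7 had an r of 0.77 with those of BMP2 and 0.78 with those of BMP4 (exact permutation tests, p = 0.00523 and 0.00580, adjusted p = 0.0580 for both), with rho of 0.62 and 0.65 (exact permutation tests, p = 0.0857 and 0.0666, adjusted p = 0.648 for both). Without the 2 farthest donors r was 0.51 and 0.10. GDF7 was detected at both passages in 4 donors, so that its other changes are bounds or rest on no detected well.

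**Figure D5:**
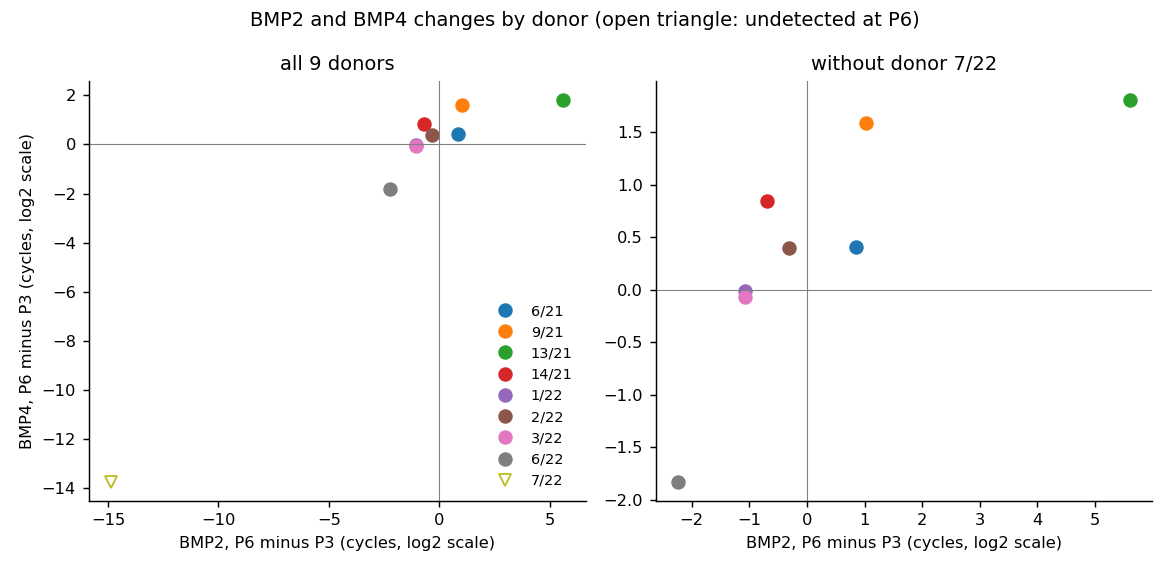
Change of BMP4 (vertical axis) against change of BMP2 (horizontal axis), both P6 minus P3 in −ΔCT (cycles, log2 scale), in all 9 donors (left) and without donor 7/22 (right), whose open triangle marks the undetected wells. The 8 other donors keep a rising order, with r of 0.78 and rho of 0.93.

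The level of a donor at P6 was set against that of the same donor at P3, and r was highest for BMP7 among the 5 genes. For BMP7 Pearson's r was 0.80 (p = 0.00508 by exact permutation, adjusted p = 0.107 over the 84 genes). Spearman's rho was 0.72 (p = 0.0369 by exact permutation, adjusted p = 0.172). Without donors 13/21 and 6/22, the 2 farthest at P3, r was 0.53. In BMP4 r was 0.44 and rho 0.75 (exact permutation tests, p = 0.233 and 0.0255, adjusted p = 0.516 and 0.153, r 0.58 without the 2 farthest). In GDF7 r was 0.70 and rho 0.57 (exact permutation tests, p = 0.0266 and 0.121, adjusted p = 0.138 and 0.327), and r was 0.16 without donors 2/22 and 7/22. BMP2 had an r of −0.25 and a rho of −0.12 (exact permutation tests, p = 0.568 and 0.776, adjusted p = 0.799 and 0.880, r −0.05 without the 2 farthest), and GDF5 an r of 0.09 and a rho of 0.57 (exact permutation tests, p = 0.825 and 0.121, adjusted p = 0.912 and 0.327, r 0.51 without the 2 farthest). None of the 5 passed after adjustment, where 3.57% of the 84 genes did by r, and an unadjusted p under 0.05 by r was held by 2 of the 5, BMP7 and GDF7, against 21.4% of all genes. The differences among these coefficients were not tested. GDF5 was at the limit in 12 and GDF7 in 7 of 18 samples, where −ΔCT follows the reference CT alone. The coefficients of these 2 genes are therefore not of measured levels throughout.

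The other genes whose −ΔCT was most like that of each member over the 18 samples, by Pearson r among 79 genes, were taken as a description. For BMP2 they included INSR (r 0.90, rho 0.44), which encodes the insulin receptor, and KDR (r 0.69, rho 0.51), a VEGF receptor. For BMP4 they included INSR (r 0.92, rho 0.34) and KAT2B (r 0.78, rho 0.70), a histone acetyltransferase. These rest on the P6 sample of donor 7/22, in which INSR lay at −20.03, against −8.17 to −4.27 in the other P6 samples and −7.72 to −6.19 at P3. Without that sample r was 0.19 for INSR and 0.22 for KDR with BMP2, and 0.08 for INSR and 0.32 for KAT2B with BMP4. For BMP7 the 3 genes were ITGAV (r 0.54, rho 0.38), an integrin chain, ICAM1 (r 0.42, rho 0.35), an adhesion molecule, and FGF2 (r 0.41, rho 0.44), a growth factor. They were 0.52, 0.33 and 0.51 without that sample. For GDF5 they were ABCB1 (r 0.49, rho 0.15), a drug efflux pump, WNT3A (r 0.45, rho 0.66) and VEGFA (r 0.43, rho 0.47). GDF5 was at the limit in 12 of 18 samples and WNT3A in all but 1, and where both are, their −ΔCT values are equal by construction, so that the likeness of WNT3A is not one of measured levels. For GDF7 they were IFNG (r 0.63, rho 0.49), which encodes interferon gamma, FUT1 (r 0.52, rho 0.63), a fucosyltransferase, and RUNX2 (r 0.50, rho 0.50), the master regulator of bone formation.

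The other genes of the pathway on the array did not pass the test in either direction. Of the 3 related ligands (TGFB1, TGFB3 and GDF15) none did, and their median log2 difference was −0.41. GDF15, a stress-induced member of the superfamily, differed by −1.33 (standard error 1.00, adjusted p = 0.873 from limma), with lower values at P6 in 8 of 9 dogs. That fit has no donor block, so its standard error holds the spread between donors. GDF15 levels at P6 and P3 were related across donors (r 0.91, exact permutation adjusted p = 0.0468, r 0.56 without donors 6/21 and 13/21). The donor changes lay between −2.41 and 0.24, with a median of −1.89. A fit of GDF15 with the donor as a block is not reported here. SMAD4, SMURF1, SMURF2 and the co-receptor gene ENG, which transmit or limit the signal, were detected in all 18 samples and differed by −0.05 to 0.26, with none of 4 past the test. Of the 4 skeletal lineage genes RUNX2, SOX9, BGLAP and COL1A1 none passed, with a median of 0.89 from the means and 0.15 from the medians. BGLAP differed by 1.75 (standard error 1.80, adjusted p = 0.873 from limma), but by −0.01 in the medians, since its P6 mean holds the early well of donor 7/22. COL1A1, a chain of type I collagen, differed by 2.06 (standard error 2.40, adjusted p = 0.873 from limma), but by 0.31 in the medians, with its P3 well undetected in 1 donor and higher values at P6 in 4 of 9.

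Markers of other cell types were measured beside these genes. Of the 2 leukocyte markers, PTPRC differed by −4.38 (adjusted p = 0.0300 from limma) and ITGAX by −4.91 (adjusted p = 0.0519 from limma). Their summed level was between 0.000104% and 0.00213% of the reference at P6 and between 0.00267% and 1.04% at P3. Of the 3 adipocyte markers, ADIPOQ and LPL differed by −3.29 and −3.41, each lower in 8 of 9 donors, and PPARG by 2.63, but by −0.71 in the medians, with none past the adjusted test. The PPARG mean holds 1 early P6 well, of donor 1/22, at 7.56 cycles. The summed level of the 3 was between 0.0280% and 18853% of the reference at P6, with the highest value from that well, and between 0.0537% and 0.250% at P3. None of the 2 endothelial and the 3 smooth muscle and pericyte markers passed. In such bulk RNA, fewer cells of a type and less RNA per cell cannot be told apart, and the part of other cells in the BMP and GDF levels was not tested.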

How the data were processed

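Total RNA of cAD-MSCs was reverse transcribed and run by the authors on a SYBR Green array for dog mesenchymal stem cells, with no pre-amplification. The array has 96 labelled positions, called wells here, and was run on a Rotor-Gene Q. The authors deposited CT values per well in cycles for 18 samples, which were used here, the mean ΔCT per passage, used as a check, and fold changes of P6 over P3, which were not used. No read depth applies, and the 9 donors and the limit of 35 cycles set the precision.

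Each well without a CT under 35 was set to 35 and −ΔCT was taken to the geometric mean CT of ACTB, B2M, HPRT1, PGK1 and RPL13A. P6 and P3 were compared with limma 3.58.1 in R 4.3.3 over all 84 genes (two-sided, no donor block, as the methods' test is unpaired), with Benjamini-Hochberg adjustment and a threshold of 0.05. Levels and relations were tested with exact permutation tests in Python 3.11.15, and adjusted over 20 pairs or 30 relations. Figures were drawn with matplotlib 3.10.9.

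Both passages come from the same dogs, so the samples are paired. The deviations of a donor's 2 samples from their passage means correlated at 0.066 to 0.643 over the 84 genes (median 0.161, against −0.034 between donors).

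The members, the gene lists and the tests were chosen with earlier results of these data known. Named are the 5 members, pathway genes that differed by at least 1 or had an unadjusted p under 0.05, the 3 genes most like each member (1 of those for BMP2 and BMP4 is not reported here) and any gene with an adjusted p under 0.05. The cell type markers THY1, ALCAM, ITGAX, ADIPOQ, LPL and PPARG and the genes in wells labelled next to BMP2 and BMP4 were named after their values were seen. The shares of transcripts, the ratios of BMP genes, the test of donor levels between the passages, the test of changes in the gaps between genes, the levels without donor 7/22, the reading of the BMP2 and BMP4 changes from CT alone and over all gene pairs, and the fit that leaves out undetected wells with a donor block were also added then. The alternatives were other tests, limits, reference genes and sets of donors. Of the 84 array symbols 83, and all 5 member symbols, were found in the RefSeq gene table of assembly UU_Cfam_GSD_1.0. Of the 84 RefSeq numbers of the array 35 were found there, and those of 2 of the 5 members were found under the same symbol. The files name no genome build, so that no coordinates are given.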

Additional observations from a re-analysis of the deposited data

Results flagged for a closer look

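Dixon's test at the 95% level was applied to the lowest and the highest donor of each gene and passage, which by chance alone marks about 1 of 20 groups. Of the 10 groups of a gene and a passage, 2 held a donor past it, and both were the P6 sample of donor 7/22. BMP2 lay there at a −ΔCT of −20.87, which is 11.93 below the nearest donor (0.661 of the range), and BMP4 at −20.87, which is 12.66 below the nearest (0.776 of the range). Both values are bounds from wells that never crossed the threshold.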

How the results depend on the processing

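The 5 genes stayed short of an adjusted p of 0.05 in all 123 tested alternatives (lowest 0.691), among them the donor block, which changed no call of theirs. BMP7 was higher at P6 in all of its 27 alternatives (0.23 to 1.74). The direction of the others turned in some. With undetected wells left out the log2 difference was 0.16 for BMP2, 0.52 for BMP4 and 0.23 for GDF5, and with the donor as a replicate block as well (added after the values were seen) 0.26, 0.39 and 1.57. Without donors 9/21 and 7/22 BMP2 was 0.15 and BMP4 0.22, and in donors /21 alone BMP2 was 1.70, BMP4 1.16 and GDF7 0.41. By the methods' t-test on 2^−ΔCT the log2 ratio of the means was 0.86 for BMP2 and 0.32 for BMP4. BMP4 was 0.29 with robust regression and 1.22 by medians. GDF7 was 0.41 with a limit of 40 cycles and 0.36 by medians. When each donor was left out, BMP2 ranged from −2.30 to 0.26, BMP4 from −1.55 to 0.39, BMP7 from 0.67 to 1.34, GDF5 from −1.32 to −0.25 and GDF7 from −0.71 to −0.04.

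The count of genes called over the array, 1, was 2 with the donor as a replicate block, with the median of the detected genes as reference or after removal of genes with mean CT over 30 (74 left), and 3 with robust regression. It was 0 without ACTB and B2M, with undetected wells left out (also with the replicate block), without donors 9/21 and 7/22, in donors /21 or /22 alone, by the exact permutation test (5 genes at an unadjusted p under 0.05), the exact sign-flip test with the replicate block (7) and the methods' t-test (4), and 0 to 2 when each donor was left out. The count of pairs that differed in level, 14, was 0 with undetected wells left out, where fewer samples remain, and 13 to 14 when each donor was left out. It was also 0 in donors /21 or /22 alone. There the exact sign-flip test has too few donors to give a p under 0.05 for any pair, so that this 0 was fixed beforehand. The count of relations, 1, was 0 with undetected wells left out and without donors 9/21 and 7/22, 2 with the median of the detected genes as reference, and 0 to 3 when each donor was left out. The cause of the other shifts was not tested. The filter on low values kept BMP2, BMP4 and BMP7, and GDF5 was at the limit in 12 and GDF7 in 7 of 18 samples.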
